A study of Mus musculus with 9 samples.

Results

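The semaphorins, plexins and neuropilins are a family of 31 genes in this data set, made up of 20 semaphorins, 9 plexins and 2 neuropilins. They were taken by gene symbol, from a list chosen with earlier results of these data known. All 31 stood among the 14592 named genes of the log2 CPM table that the authors deposited. All 31 also passed the filter on low counts in the gene sums used here, which left 15340 genes, so no member was lost. The libraries were made from the mediobasal hypothalamus (MBH) of male wild-type C57Bl/6 mice at postnatal day 21 (P21), with 4 control litters (CTRL) and 5 litters of emulsifier-treated dams (Emul). CTRL dams drank plain water. Emul dams drank water with 1% sodium carboxymethyl cellulose (CMC) and 1% polysorbate 80 (P80), both food emulsifiers, from before pregnancy to the end of lactation. No group carried an altered allele or a drug beyond the emulsifiers. The pups stayed with their dams until weaning, so an effect through the dam and the pups' own intake cannot be told apart. The sources used here do not state whether each library came from a single pup.

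Semaphorins are guidance cues for growing axons and migrating cells. Class 3 members are secreted, classes 4, 5 and 6 span the membrane, and Sema7a is held on the membrane by a lipid anchor. Their main receptors are the plexins, whose cytoplasmic part is a GTPase-activating domain that acts on small GTPases such as R-Ras and Rap, while most class 3 ligands first bind the co-receptors Nrp1 or Nrp2, which pair with A-type plexins. Class 3 signalling is known for guiding melanocortin axons within the hypothalamus and for the migration of gonadotropin-releasing hormone neurons, and several transmembrane semaphorins, Sema4d among them, are made by oligodendrocytes, the myelin-forming cells.

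Libraries held between 28245360 and 46067534 estimated counts. CTRL 3 was the shallowest, and no pair of libraries within a group agreed within counting noise. Of 11 arcuate and ventromedial genes listed as markers of the dissected tissue, 10 were tested. Only Fezf1 had an unadjusted p under 0.05 (log2 fold change -0.32, unadjusted p = 0.0089 from limma), beside 15.8% of all genes. Pomc (-0.23, unadjusted p = 0.17 from limma) and Cartpt (-0.10, unadjusted p = 0.21) did not pass. The paper reports both as reduced in males by quantitative PCR. Npy lay on the other side of 0 (0.28, unadjusted p = 0.069 from limma). Their summed level lay between 514 and 553 TPM (a share of all transcripts that is corrected for their length) in CTRL and between 454 and 680 TPM in Emul. Kiss1 was close to 0, at a mean of 0.10 TPM in CTRL, and was not tested.

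Levels between genes were compared per transcript length, in TPM, with the CTRL means. Sema4d was the most abundant of the 31 genes at 179 ± 16.7 TPM (SD, n = 4), followed by Sema4a at 110 ± 10.8 TPM, and these 2 stood apart from each other and from the rest. Plxna1 was the most abundant receptor at 68.5 ± 6.70 TPM, a level that overlapped Sema6b at 64.3 ± 2.15 TPM. Below these the order was close. From Plxnb1 at 51.5 ± 2.84 TPM to Plxnb2 at 43.9 ± 2.64 TPM, the 5 genes Plxnb1, Sema4g, Sema6d, Plxna3 and Plxnb2 each lay within the SD of a neighbour. The 6 least abundant genes were all secreted class 3 ligands, and the 7 class 3 ligands summed to 57.9 TPM out of 1085 TPM for all 31 genes. Among them Sema3f, the Nrp2 ligand, was highest at 18.7 ± 0.70 TPM, and Sema3g was lowest at 2.69 ± 0.364 TPM. Nrp2 (31.1 ± 0.466 TPM) was more abundant than Nrp1 (17.2 ± 1.53 TPM), with no overlap of their CTRL libraries. Part of the Sema4d level rested on the short transcript Sema4d-204 (1249 bases), which took 27.4% of the Sema4d counts in CTRL and weighs more per length than the longer forms.

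**Figure D1:**
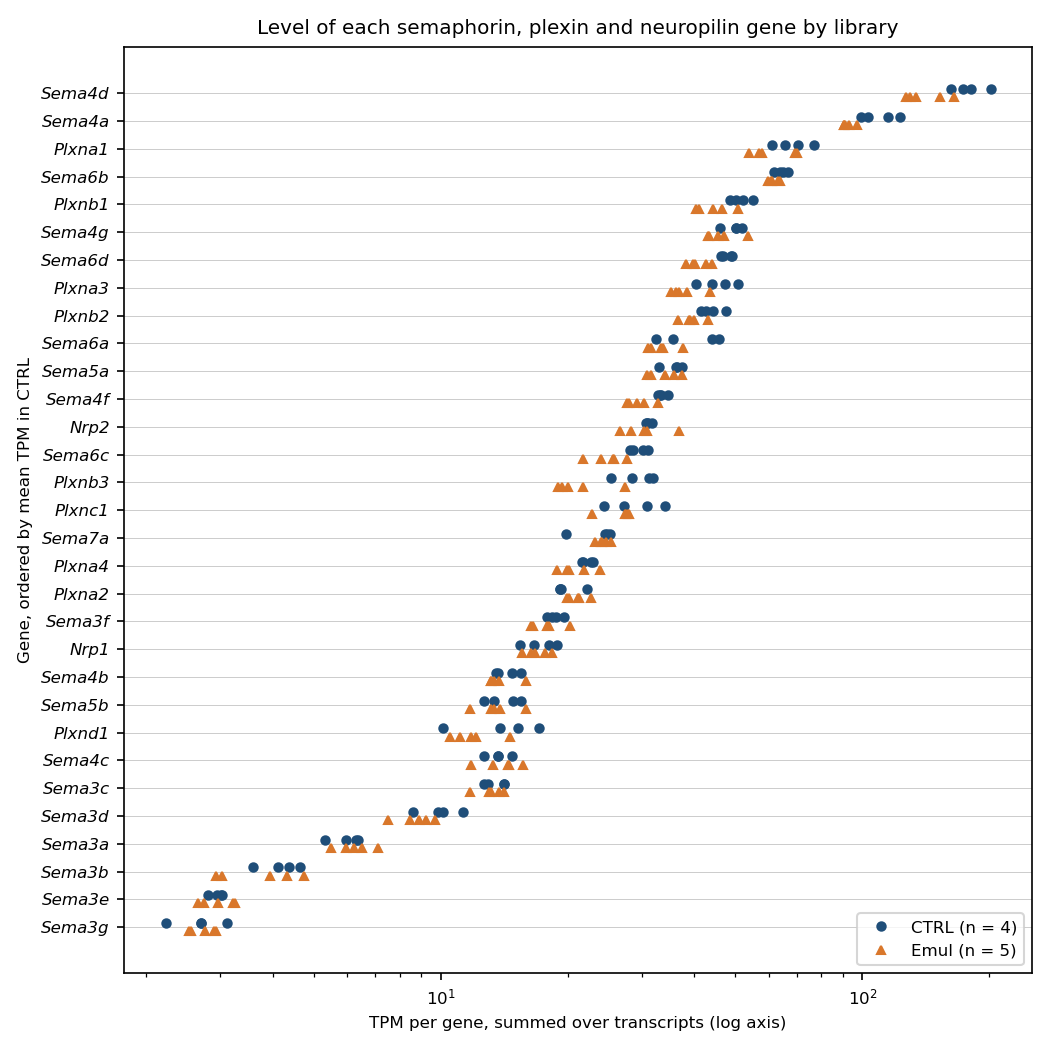
TPM per gene (log axis) of the 31 genes in each of the 4 CTRL libraries (circles) and 5 Emul libraries (triangles), ordered by the CTRL mean. Sema4d and Sema4a lie at the top, and the 6 lowest genes are all class 3 ligands. TPM values are not scaled by TMM, so the plot shows the order of the levels, and groups are compared on the log2 CPM scale.

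Between the groups, 9 of the 31 genes (29.0%) differed at an unadjusted p under 0.05. Over all genes tested this share was 15.8%. The study's methods name a p-value under 0.05 together with a fold criterion, which was not applied to this count. The legend of its volcano plot names a false discovery rate instead. Sema4a, Sema4d, Sema6c, Sema6d, Plxna3, Plxnb1 and Plxnb3 were lower in Emul, and Sema7a and Plxna2 were higher. The background was 8.99% of all genes for lower and 6.84% for higher. None of the 9 changed by more than 1.5-fold, which the study's methods also require and which together with the p threshold was met by 0.469% of all genes, and none had an adjusted p under 0.05 (0.117% of all genes) or under 0.10. The adjusted p-values of the 9 genes lay between 0.137 and 0.297 in limma with Benjamini-Hochberg adjustment over all genes. With DESeq2 in place of limma, Sema4d and Plxnb1 reached an adjusted p of 0.041, in a fit where 341 of 15340 genes passed 0.05. In none of the 31 genes were all Emul libraries on 1 side of all CTRL libraries, whereas 6.60% of all genes had such a separation. The median log2 fold change of the 31 genes was 0.0008, beside 0.0015 for all genes, and the median size of the change was 0.065, beside 0.063. Of the 31 genes, 15 lay below and 16 above 0. On the authors' table, 6 of the 31 genes had an unadjusted p under 0.05 in limma (Sema4a, Sema4d, Sema6d, Plxna2, Plxna3 and Plxnb3), against 13.5% of all genes there.

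**Figure D2:**
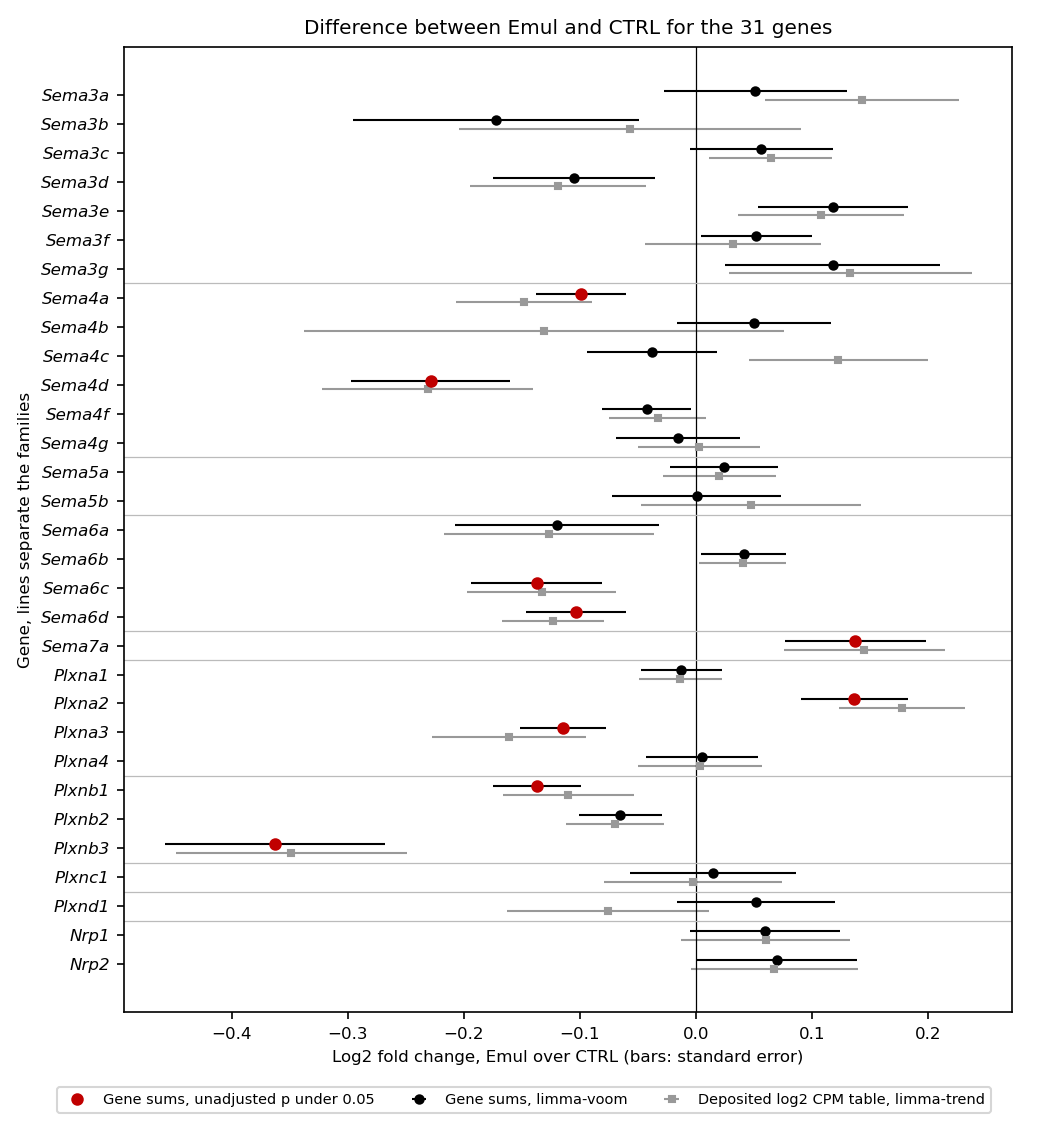
Log2 fold change (Emul over CTRL) with its standard error for the 31 genes, from the gene sums by limma-voom (circles, red where the unadjusted p was under 0.05) and from the deposited log2 CPM table by limma-trend (grey squares). Plxnb3 lies farthest from 0 at -0.36, and the 2 measures take opposite signs for Sema4b, Sema4c, Sema4g, Plxnc1 and Plxnd1, none of which was called.

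Among the ligands, Sema4d (chromosome 13, 51685529 to 51793747 in mm10), the class 4 ligand of Plxnb1 found in central myelin, fell most. Its log2 CPM was 7.74, 7.49, 7.55 and 7.44 in CTRL 1 to 4 and 7.22, 7.42, 7.28, 7.49 and 7.20 in Emul 1 to 5. Only Emul 4 reached into the CTRL range, above CTRL 4 and level with CTRL 2. CTRL averaged 7.55 ± 0.129 (SD, n = 4) and Emul averaged 7.32 ± 0.124 (SD, n = 5). The fitted log2 fold change was -0.23 (SE 0.069, unadjusted p = 0.0060 and adjusted p = 0.173 from limma), or 0.854 of the CTRL level. The exact permutation test of the 9 values gave p = 0.032 (two-sided), in a design where the smallest possible p is 0.016. Because these are bulk samples, fewer cells that make a transcript and less of it per cell cannot be told apart, here and below.

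Sema4a (chromosome 3, 88435959 to 88461182), a class 4 semaphorin best known from the immune system, was lower by a smaller amount. CTRL 1 to 4 had 6.14, 6.19, 6.25 and 6.33 log2 CPM, and Emul 1 to 5 had 6.14, 6.11, 6.10, 6.12 and 6.17. Emul was tightly grouped near the lowest CTRL library, CTRL 1. The log2 fold change was -0.10 (SE 0.039, unadjusted p = 0.025, adjusted p = 0.246 from limma). Without CTRL 4, the highest library, it was -0.064 (unadjusted p = 0.11 from limma). Without CTRL 3 it was -0.093 (unadjusted p = 0.055 from limma). The other 4 class 4 genes, Sema4b, Sema4c, Sema4f and Sema4g, had log2 fold changes between -0.042 and 0.050 and did not pass the test. The sign of Sema4b and of Sema4c depended on how transcripts were combined into genes. For Sema4b it was -0.13 on the authors' table, and -0.17 in gene sums without the transcripts with newer Ensembl numbers, which carried 59.0% of its counts. For Sema4c, a Plxnb2 ligand, it was 0.12 on the table.

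In class 6, whose members span the membrane and act through A-type plexins, Sema6c and Sema6d were lower. Sema6c (chromosome 3, 95160457 to 95174024) had 4.88, 4.87, 4.90 and 5.07 log2 CPM in CTRL 1 to 4 and 4.75, 4.81, 4.83, 4.89 and 4.67 in Emul 1 to 5. CTRL 4 stood above the others, and Emul 4 fell inside the range of the remaining CTRL libraries. Its log2 fold change was -0.14 (SE 0.057, unadjusted p = 0.032, adjusted p = 0.266 from limma). Without CTRL 4 it was -0.086 (unadjusted p = 0.14 from limma). Sema6d (chromosome 2, 124089969 to 124667770), a ligand of Plxna1, had 7.10, 7.09, 7.02 and 7.16 log2 CPM in CTRL and 6.89, 7.03, 6.96, 6.99 and 7.10 in Emul. Emul 5 lay as high as CTRL 1, and CTRL 3 lay below Emul 2. Its log2 fold change of -0.10 (SE 0.043, unadjusted p = 0.032 from limma) went with an exact permutation p of 0.095, so for Sema6d the model and the exact test fell on different sides of 0.05. Sema6b, the most abundant class 6 gene and a Plxna4 ligand, had 6.79, 6.87, 6.78 and 6.86 log2 CPM in CTRL and 6.84, 6.92, 6.87, 6.78 and 6.92 in Emul, with overlapping groups and a log2 fold change of 0.041 (95% interval -0.038 to 0.12). Sema6a, a ligand of Plxna2 and Plxna4 that oligodendrocytes also express, had a log2 fold change of -0.12 (unadjusted p = 0.20 from limma). Its CTRL libraries split, with 6.88 and 6.77 in CTRL 1 and CTRL 3 against 6.47 and 6.36 in CTRL 2 and CTRL 4, while Emul lay between 6.42 and 6.58. With CTRL 4 left out its log2 fold change was -0.21 (unadjusted p = 0.018 from limma), and with CTRL 1 left out it was -0.031 (unadjusted p = 0.69 from limma).

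Sema7a (chromosome 9, 57940112 to 57962865), the only class 7 gene and a ligand of Plxnc1 and of beta1 integrins, was the only ligand called higher. The CTRL libraries had 5.31, 5.29, 4.98 and 5.25 log2 CPM, and the Emul libraries had 5.34, 5.45, 5.30, 5.37 and 5.31. CTRL 3, the shallowest library, lay far below the other 8, which fell between 5.25 and 5.45. The log2 fold change of 0.14 (SE 0.061, unadjusted p = 0.043, adjusted p = 0.297 from limma) shrank without CTRL 3 to 0.073 (unadjusted p = 0.12 from limma).

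None of the 7 secreted class 3 ligands passed the test. Their log2 fold changes ran from -0.17 for Sema3b to 0.12 for Sema3e and Sema3g, 5 above and 2 below 0, with standard errors between 0.048 and 0.12. Sema3f, the most abundant, had 4.29, 4.26, 4.30 and 4.34 log2 CPM in CTRL and 4.33, 4.43, 4.41, 4.32 and 4.26 in Emul, and the groups overlapped over the whole CTRL range. Its log2 fold change was 0.052 with a 95% interval from -0.051 to 0.16. For Sema3a, the Nrp1 ligand, it was 0.051 (95% interval -0.12 to 0.22). For Sema3e, which binds Plxnd1 without a neuropilin, it was 0.12 (unadjusted p = 0.093 from limma). With 118 to 258 counts per library for Sema3b and 141 to 310 for Sema3g, these were the most thinly counted genes of the family, and the interval for Sema3b reached from -0.44 to 0.10. Leaving out 1 library gave an unadjusted p under 0.05 in limma for Sema3b (without CTRL 3, log2 fold change -0.27), Sema3d (without CTRL 4, -0.19) and Sema3e (without Emul 1, 0.16).

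The class 5 ligands carry thrombospondin repeats. Sema5a had 7.61, 7.56, 7.61 and 7.46 log2 CPM in CTRL and 7.48, 7.54, 7.56, 7.61 and 7.71 in Emul, which overlapped fully (log2 fold change 0.024, 95% interval -0.077 to 0.13). Sema5b differed by 0.0008 (95% interval -0.16 to 0.16).

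Among the receptors, 4 of 9 plexins and neither neuropilin were called, beside 15.8% of all genes. The B-type plexins, receptors of the class 4 semaphorins, were all below 0, and 2 of the 3 passed the test (8.99% of all genes were called lower). Plxnb3 (chromosome X, 73757090 to 73772514), a plexin expressed mainly by oligodendrocytes and a receptor of Sema5a, had the largest change of the 31 genes. CTRL 1 to 4 had 6.45, 6.24, 6.38 and 6.11 log2 CPM, and Emul 1 to 5 had 5.81, 6.00, 5.80, 6.23 and 5.77. In 4 of 5 Emul libraries Plxnb3 lay below every CTRL library, and Emul 4 lay between CTRL 4 and CTRL 2. CTRL averaged 6.29 ± 0.151 (SD, n = 4) and Emul averaged 5.92 ± 0.197 (SD, n = 5). The fitted log2 fold change was -0.36 (SE 0.095, unadjusted p = 0.0024, adjusted p = 0.137 from limma), or 0.778 of the CTRL level. The exact permutation test gave p = 0.032. With each library left out in turn the log2 fold change stayed between -0.44 and -0.31, and it was -0.35 on the authors' table (unadjusted p = 0.0048 from limma).

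Plxnb1 (chromosome 9, 109095389 to 109119917), the Sema4d receptor, had 7.29, 7.34, 7.34 and 7.42 log2 CPM in CTRL and 7.24, 7.15, 7.19, 7.30 and 7.17 in Emul. Again Emul 4 was the only Emul library inside the CTRL range, just above CTRL 1. The log2 fold change was -0.14 (SE 0.038, unadjusted p = 0.0034, adjusted p = 0.153 from limma; exact permutation p = 0.032). On the authors' table it was -0.11 with an unadjusted p of 0.077 from limma, so the direction held and the call did not. Plxnb2, the receptor of Sema4c and Sema4g, had a log2 fold change of -0.065 (95% interval -0.14 to 0.013) and was not called.

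The A-type plexins, the signalling receptors of class 3 and class 6 ligands, moved in both directions. Plxna2 (chromosome 1, 194618218 to 194816869), a Sema6a receptor, had 6.68, 6.77, 6.63 and 6.59 log2 CPM in CTRL and 6.84, 6.78, 6.89, 6.69 and 6.82 in Emul. Only Emul 4 lay below CTRL 2. It rose by a log2 fold change of 0.14 (SE 0.046, unadjusted p = 0.012, adjusted p = 0.197 from limma; exact permutation p = 0.032). Plxna3 (chromosome X, 74329066 to 74344689), a receptor for Sema3f together with Nrp2, had 6.20, 6.25, 6.29 and 6.31 log2 CPM in CTRL and 6.10, 6.11, 6.22, 6.19 and 6.12 in Emul. Emul 3 alone lay above the lowest CTRL library. The log2 fold change was -0.11 (SE 0.037, unadjusted p = 0.0096, adjusted p = 0.187 from limma; exact permutation p = 0.032). Plxna1, the most abundant plexin, had 7.71, 7.73, 7.83 and 7.74 log2 CPM in CTRL and 7.75, 7.69, 7.71, 7.74 and 7.82 in Emul, with a log2 fold change of -0.013 and a 95% interval from -0.089 to 0.063. Plxna4 differed by 0.0053 (95% interval -0.10 to 0.11).

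Plxnc1, the Sema7a receptor, ranged from 6.46 in CTRL 1 to 6.88 in CTRL 3, with 6.63 and 6.59 in CTRL 2 and CTRL 4. Its Emul libraries had 6.72, 6.50, 6.70, 6.67 and 6.67 log2 CPM, all within the CTRL range (log2 fold change 0.015, 95% interval -0.14 to 0.17). Plxnd1, the Sema3e receptor known from blood vessels, had 4.25, 4.30, 4.25 and 4.41 log2 CPM in CTRL and 4.36, 4.46, 4.51, 4.18 and 4.32 in Emul (log2 fold change 0.052, 95% interval -0.096 to 0.20). Nrp2 had 6.71, 6.63, 6.62 and 6.67 log2 CPM in CTRL and 6.54, 6.69, 6.73, 6.71 and 6.99 in Emul. Emul 5 was the highest and Emul 1 the lowest of all 9 libraries, and the log2 fold change was 0.070 (95% interval -0.080 to 0.22). For Nrp1 it was 0.059 (95% interval -0.081 to 0.20).

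**Figure D3:**
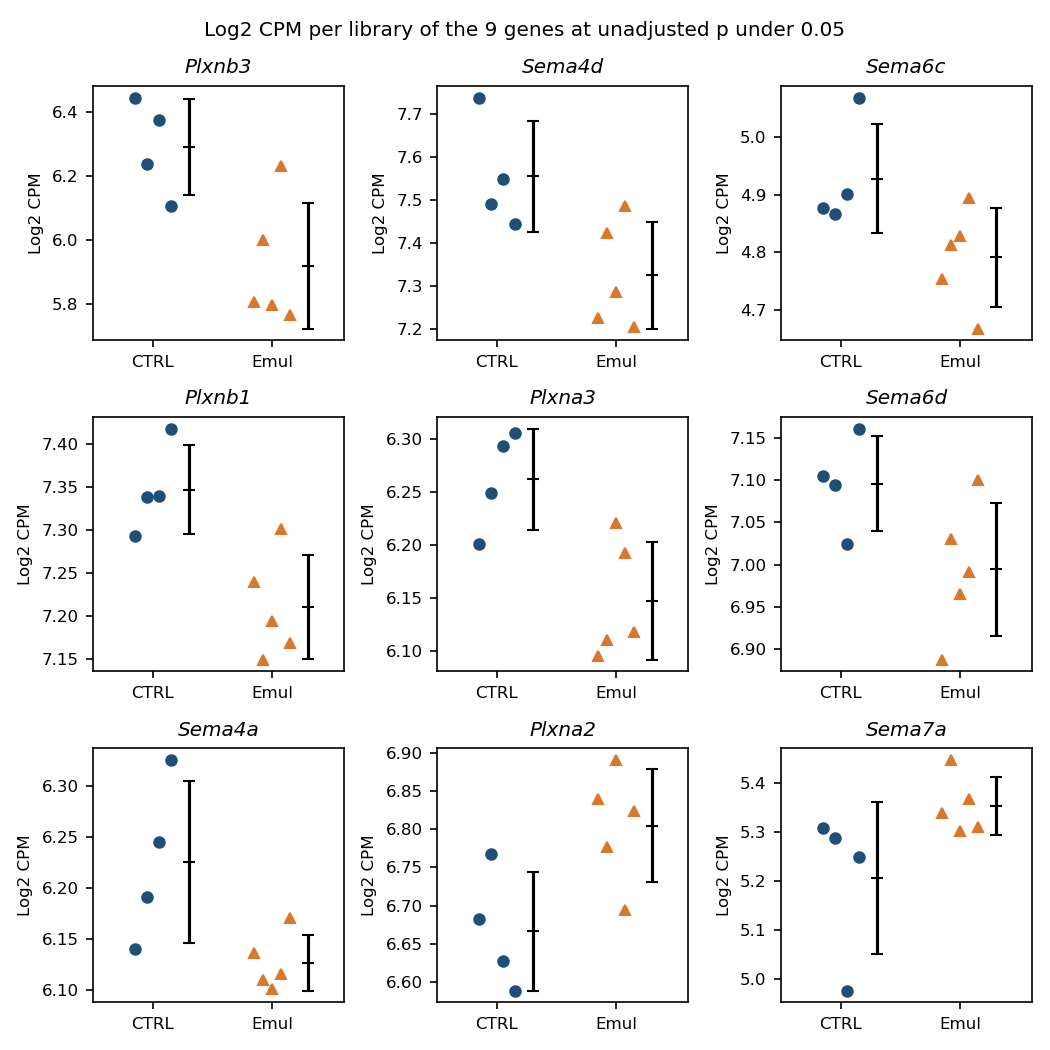
Log2 CPM of the 9 genes with an unadjusted p under 0.05, per library (CTRL circles, n = 4, and Emul triangles, n = 5, each in the order of the replicate numbers), with the mean and SD of each group as bars. Each panel has its own vertical axis, which does not start at 0. In Plxnb3, Sema4d and Plxnb1 the Emul library within the CTRL range is Emul 4.

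Set side by side, known ligand and receptor pairs did not share 1 pattern. Sema4d and Plxnb1 were both lower in Emul (-0.23 and -0.14 on the log2 scale). Sema7a rose by 0.14 while its receptor Plxnc1 stood at 0.015. Plxnb3 fell by 0.36 while Sema5a stood at 0.024. Plxna2 rose by 0.14 while its ligand Sema6a stood at -0.12 without passing the test, and Sema6d fell by 0.10 while Plxna1 stood at -0.013. No test of such pairs was made.

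The promoters shown are those of the 4 called plexins, and called ligands were left out. Most of the counts of these plexins came from transcripts that start near the RefSeq start site. The printed windows end just before that site and so lie at or near the starts of the measured transcripts. For Plxnb1 the main transcript starts 47 bases from that site, and the annotated gene start (109095389) lies inside the window. Each sequence is the 250 bases upstream of the start on the coding strand, 5′ to 3′ (RefSeq promoter table, GRCm38.p6, all on the + strand). Capitals mark matches on either strand to the GC box core GGGCGG or to the SOX cores ACAAAG and ACAATG. The windows are chr1:194619579-194619828 for Plxna2, chrX:74328816-74329065 for Plxna3, chr9:109095186-109095435 for Plxnb1 and chrX:73756853-73757102 for Plxnb3.
Plxna2: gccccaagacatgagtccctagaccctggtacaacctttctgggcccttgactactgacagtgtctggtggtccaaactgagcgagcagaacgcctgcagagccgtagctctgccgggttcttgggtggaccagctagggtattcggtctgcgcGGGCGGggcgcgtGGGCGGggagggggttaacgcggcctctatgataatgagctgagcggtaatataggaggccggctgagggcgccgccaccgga
Plxna3: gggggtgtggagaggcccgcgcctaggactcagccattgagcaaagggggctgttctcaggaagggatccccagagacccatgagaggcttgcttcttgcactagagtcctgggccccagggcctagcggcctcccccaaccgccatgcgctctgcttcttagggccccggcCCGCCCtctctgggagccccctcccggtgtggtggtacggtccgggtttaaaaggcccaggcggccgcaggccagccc
Plxnb1: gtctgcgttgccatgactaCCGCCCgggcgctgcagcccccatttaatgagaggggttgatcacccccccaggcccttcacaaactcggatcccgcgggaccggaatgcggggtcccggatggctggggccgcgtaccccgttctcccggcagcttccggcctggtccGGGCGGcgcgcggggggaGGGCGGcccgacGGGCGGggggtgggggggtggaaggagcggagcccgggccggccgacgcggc
Plxnb3: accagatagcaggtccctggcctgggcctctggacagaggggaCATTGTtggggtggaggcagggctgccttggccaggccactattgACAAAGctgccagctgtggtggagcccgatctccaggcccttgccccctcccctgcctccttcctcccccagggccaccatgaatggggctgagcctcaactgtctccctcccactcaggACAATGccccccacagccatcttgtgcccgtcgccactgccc

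Within 100 bases of these starts began the transcripts that carried 96.8% of the counts of Plxna2, 82.1% of Plxna3, 97.5% of Plxnb1 and 95.1% of Plxnb3. The windows of Plxna2, Plxna3 and Plxnb1 held 2, 1 and 4 GC box cores. The Plxnb3 window held none, and it held 1 ACAAAG and 2 ACAATG matches. Of all 32851 promoter windows in the table, 32.7% held GGGCGG, 16.5% held ACAAAG and 10.7% held ACAATG. A promoter was found for 26 of the 31 genes, of which 19 held GGGCGG, 5 held ACAAAG and 4 held ACAATG. A match to so short a word describes the sequence only. Among the called ligands, the same share was 100% for Sema7a and 85.2% for Sema6c. The Sema4d promoter in the table lay 37064 bases from the start of its main transcript.

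The 2 genes that fell most, Plxnb3 and Sema4d, are both known from oligodendrocytes, and markers of that cell type differed between the groups as well. Of 10 mature oligodendrocyte markers, 9 were lower in Emul at an unadjusted p under 0.05 in limma (background 8.99% for lower). Their median log2 fold change was -0.26, with -0.29 for Mbp, a main myelin protein, -0.31 for Mag and -0.32 for Cldn11. Mog was at -0.20 and did not pass (unadjusted p = 0.075 from limma). The summed level of the 10 markers lay between 12856 and 16179 TPM in CTRL and between 9593 and 13435 TPM in Emul. These sums are not scaled by TMM. None of the 10 markers was near 0. Relative to the mean of all 9 libraries, the mean log2 CPM of the list stood at 0.32, 0.18, 0.01 and 0.07 in CTRL 1 to 4 and at -0.13, 0.07, -0.25, 0.10 and -0.38 in Emul 1 to 5. Emul 4, the library in which Plxnb3, Sema4d and Plxnb1 were at CTRL level, was also the Emul library highest in these markers. Emul 5, lowest in the markers, was lowest in Plxnb3 and Sema4d. Emul 2 departed from this, with the markers inside the CTRL range and Plxnb3, Sema4d and Plxnb1 below every CTRL library. Plxnb1 was lowest of all in Emul 2, and within CTRL it was lowest in CTRL 1, where the markers were highest.

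Measured against the mean of the 10 markers in the same library, CTRL libraries had Plxnb3 at -2.37 ± 0.150 (SD, n = 4) on the log2 scale. In Emul it was at -2.48 ± 0.101 (SD, n = 5), a difference of -0.11. For Sema4d this difference was 0.032, for Plxnb1 0.13, for Sema6a 0.14 and for Sema4a 0.16. The part of the oligodendrocyte markers in the results for these genes was not tested. Of 7 markers of oligodendrocyte precursors and newly formed oligodendrocytes, 3 were called lower (Bmp4, Enpp6 and Neu4, with log2 fold changes of -0.30, -0.31 and -0.19), beside 8.99% of all genes. The other 4 were not called and lay between -0.13 for Gpr17 and 0.13 for Tcf7l1, with Pdgfra at -0.00047.

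**Figure D4:**
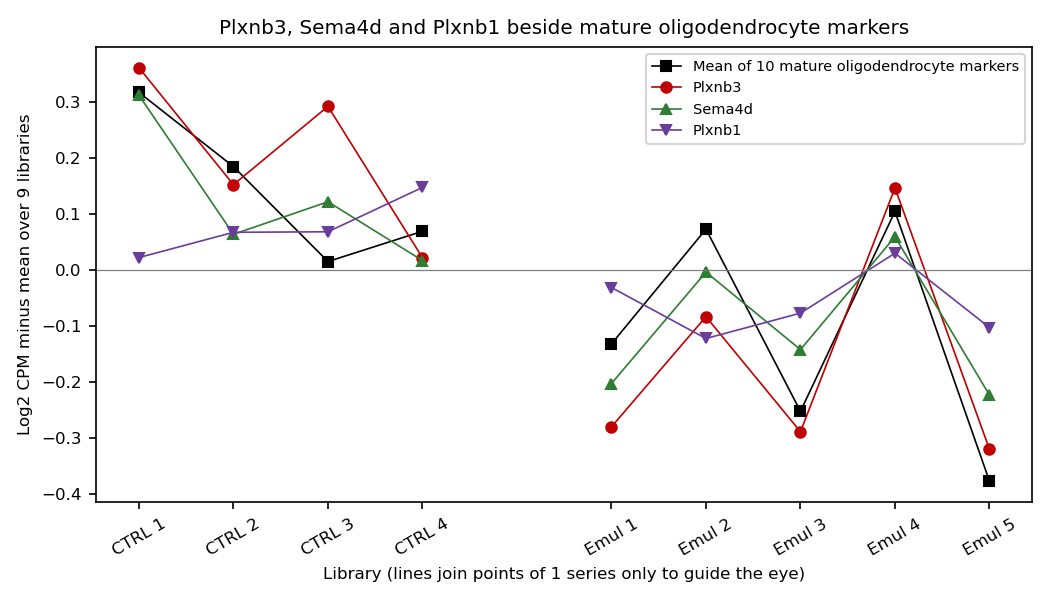
Log2 CPM minus the mean over all 9 libraries for Plxnb3, Sema4d, Plxnb1 and the mean of 10 mature oligodendrocyte markers, by library. The list mean runs from 0.01 to 0.32 in CTRL and from -0.38 to 0.10 in Emul, with Emul 4 the highest Emul library for all 4 series.

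Markers of other cell types and regions were counted in the same way. Of 8 neuronal markers 5 were called higher, beside 6.84% of all genes, with a median log2 fold change of 0.11 over the 8. Gad1 (-0.24, unadjusted p = 0.065 from limma) and Gad2 (-0.23, unadjusted p = 0.10 from limma), which make the transmitter GABA, lay on the other side of 0 and were not called. Beside the rises of Sema7a and Plxna2, the mean log2 CPM of the 8 markers was 8.53 in CTRL and 8.58 in Emul. Among the Emul libraries it was lowest in Emul 3 (8.54), where Plxna2 was highest and Sema7a was lowest. Of 5 thalamic markers, which would mark tissue next to the dissected region, 4 were tested and none was called. Their log2 fold changes were all above 0 and ran from 0.10 to 0.66. The largest were those of Tcf7l2 (0.66, unadjusted p = 0.086 from limma) and Prkcd (0.61, unadjusted p = 0.081 from limma). Their mean log2 CPM lay between 4.28 and 4.60 in CTRL and between 4.25 and 5.57 in Emul. It was highest in Emul 3 and Emul 1, which were also the 2 libraries highest in Plxna2. In Emul 5 it was the lowest of all 9 libraries (4.25), while Plxna2 there, at 6.82, lay above every CTRL library. Without each library in turn, the log2 fold change of Plxna2 stayed between 0.11 and 0.17 with an unadjusted p under 0.05 in limma. Both lateral hypothalamic markers were lower (Hcrt -0.70, Pmch -0.32), as was Vip (-1.50), 1 of 6 suprachiasmatic markers tested. Gfap (-0.40), 1 of 7 astrocyte markers, and Slco1a4 (-0.25), 1 of 7 endothelial markers, were called lower. Single calls in lists of 6 or 7 genes are close to the 15.8% of all genes called (8.99% for lower). Such counts leave out other values. Gfap had an unadjusted p of 0.00061 from limma. The mean log2 CPM of the 7 astrocyte markers lay between 7.90 and 7.97 in CTRL and between 7.72 and 7.89 in Emul. Their log2 fold changes ran from -0.40 to 0.032. All 6 tested suprachiasmatic markers lay below 0, with list means of 3.68 to 4.13 in CTRL and 3.10 to 4.01 in Emul. None of the tested markers of microglia, tanycytes and ependyma, pericytes, meninges, choroid plexus or pituitary was called. The part of these markers in the results was not tested.

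Single transcripts of the family were tested in a fit of their own. Of 49604 transcripts tested, 128 belonged to the 31 genes, and 15 of these (11.7%) had an unadjusted p under 0.05 in limma, against 9.92% of all transcripts. They came from 13 genes, 5 higher and 10 lower, and 10 were protein-coding. None had an adjusted p under 0.05 in limma, and neither had any of the 4919 transcripts with an unadjusted p under 0.05. The main coding transcripts of 3 called plexins moved as their genes did, with log2 fold changes of -0.13 for Plxnb1-201 (unadjusted p = 0.0071 from limma), 0.13 for Plxna2-201 (unadjusted p = 0.034) and -0.098 for Plxna3-201 (unadjusted p = 0.038). Plxnb3-201, the coding form with 62.7% of the Plxnb3 counts in CTRL, was at -0.32 (unadjusted p = 0.052 from limma), and the rest of the Plxnb3 counts lay on retained-intron forms.

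Within Sema4a, the transcript Sema4a-201 fell by 0.49 on the log2 scale (SE 0.12, unadjusted p = 0.0020 from limma) and went from 21.6% ± 2.68 (SD, n = 4) of the Sema4a counts in CTRL to 16.2% ± 2.08 (SD, n = 5) in Emul. In CTRL its share was 24.0%, 18.3%, 23.5% and 20.6%, and in Emul it was 19.9%, 15.3%, 15.1%, 15.4% and 15.2%, so 4 of 5 Emul libraries lay below all CTRL libraries. Sema3f-201 went the other way, from 44.5% ± 3.80 to 50.3% ± 4.39 of the Sema3f counts, with a log2 fold change of 0.24 (SE 0.083, unadjusted p = 0.016 from limma), although Sema3f as a gene was not called. Kallisto splits reads among overlapping forms by estimation, so that shares of single transcripts are less certain than gene sums.

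A list of 38 receptor partners and signalling genes held other surface receptors and co-receptors as well as adaptors, GTPases and effectors. Of these, 36 were tested (Cd72 and Timd2 were too low). Of the 36, 3 (8.33%) were called, beside 15.8% of all genes, and all 3 were lower. In the fit of the authors' table there were 5, beside 13.5% of all genes there. Rras, the small GTPase on which the plexin domain acts, had a log2 fold change of -0.21 (SE 0.078, unadjusted p = 0.022 from limma). Cntn2, an adhesion molecule of axons and myelin, was at -0.17 (SE 0.063, unadjusted p = 0.022 from limma). Erbb2, a receptor tyrosine kinase that associates with B-type plexins, was at -0.22 (SE 0.092, unadjusted p = 0.033 from limma). The median of the list was 0.002. The cytoplasmic mediators of class 3 signalling, the collapsin response mediators Crmp1, Dpysl2, Dpysl3, Dpysl4 and Dpysl5, lay between -0.043 and 0.058, and none of them passed the test.

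Across 25 other settings of the analysis, Sema4d, Plxna2, Plxna3 and Plxnb3 had an unadjusted p under 0.05 each time and never changed sign. Plxnb1 passed in 22, Sema4a in 23, Sema6c and Sema6d in 19 each and Sema7a in 15. No called gene changed sign in any of them. Sema6d lost its call without any 1 of CTRL 1, CTRL 2, CTRL 4, Emul 1, Emul 3 and Emul 4, and Sema6c without CTRL 4, Emul 1 or Emul 5.

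**Figure D5:**
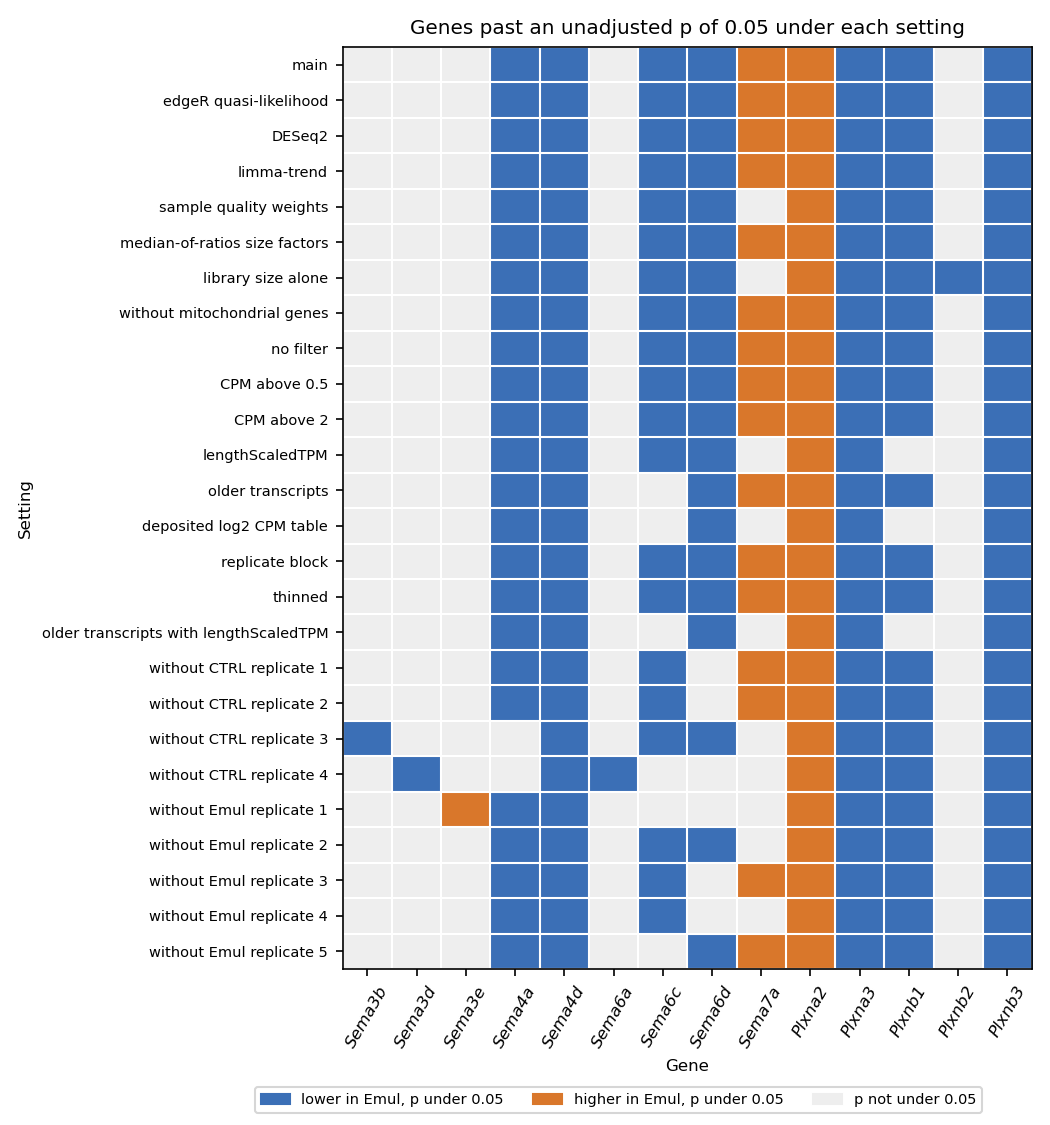
Genes with an unadjusted p under 0.05 (columns) under each setting (rows), with lower in Emul in blue, higher in orange and not past the threshold in grey. Sema4d, Plxna2, Plxna3 and Plxnb3 are filled in every row, and Sema7a is the called gene with the most empty cells.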

How the data were processed

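The authors sequenced 9 stranded RNA libraries of the mediobasal hypothalamus of male mice. Per the labels, FastQC 0.11.9, kallisto 0.46.1 and edgeR 3.40.1 were used with mm10. The deposited kallisto output of each library gives estimated counts, without normalization, and TPM for 119414 transcripts. A gene table of log2 CPM was deposited too, with 14593 rows, 1 of which has no name and was not used. How that table was made from transcripts is not given in the sources used here.

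Estimated counts were summed per gene with the GENCODE M21 annotation of mm10 (97.8% of transcripts matched, and 1.20% to 1.27% of counts were left out). Gene sums were taken as the main measure because they hold all counted transcripts, and the authors' table, fitted by limma-trend, as the other. A gene was tested if its CPM exceeded 1 in 4 or more libraries. The groups were compared by limma-voom (R 4.3.3, limma 3.58.1, edgeR 4.0.16) with TMM and no covariates, and p-values were adjusted by the Benjamini-Hochberg method over all 15340 genes. Intervals are limma's 95% intervals. A gene was called at an unadjusted p under 0.05, and a fold above 1.5, used in the study's methods as well, was applied as an alternative. Log2 CPM per library has a prior count of 2. Transcripts were kept at a CPM above 0.5 in at least 4 libraries. For single genes a two-sided exact permutation test over the splits of 9 libraries into 4 and 5 was added. The libraries held 28245360 to 46067534 estimated counts each, and the shares of litter spread and counting noise in the precision were not tested. Replicates are separate samples by the labels, the study's methods count 4 and 5 litters, and no batch is given. TPM is per length and was used for levels between genes and for the summed levels of marker lists. It was not scaled by TMM, whose factors were 1.004 to 1.025 in CTRL and 0.983 to 0.998 in Emul. Unscaled TPM sums therefore place Emul lower than log2 CPM does.

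The genes in full are those called, those whose call differs between both measures and the highest of each class by TPM. The 31 members, the marker and partner lists, the tests and the alternatives were chosen with earlier results of these data known. Alternatives were edgeR's quasi-likelihood test and DESeq2 1.42.0 on rounded sums, limma-trend, quality weights, 3 scalings, 3 filters, lengthScaledTPM, transcripts with Ensembl numbers under 195750, thinning, a replicate block and each library left out. The fits were tested on simulated data.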

Additional observations from a re-analysis of the deposited data

Results flagged for a closer look

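In 62 groups of library values (31 genes in CTRL and in Emul), 4 held a library far from the others by Dixon's ratio of the gap to the range, where chance alone gives about 1 in 20, or 3.1. Sema4b was high in Emul 5, at 4.96 log2 CPM against 4.64 to 4.72 in the other Emul libraries (ratio 0.745). Sema6c was high in CTRL 4, at 5.07 against 4.87 to 4.90 (ratio 0.8293), and lost its call without that library. Plxna1 was high in CTRL 3, at 7.83 against 7.71 to 7.74 (ratio 0.831). Plxnc1 was low in Emul 2, at 6.50 against 6.67 to 6.72 (ratio 0.753). The 4 flags fell on 4 different libraries. The cause was not tested.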

How the results depend on the processing

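Of the 31 genes, between 6 and 9 had an unadjusted p under 0.05 in every alternative test, scaling, filter, gene summary and thinning. With 1 library left out, between 7 and 8 did, but these were not always genes called in the main fit. Without CTRL 4, Sema4a, Sema6c, Sema6d and Sema7a lost their call while Sema3d and Sema6a passed. Without Emul 1, Sema6c, Sema6d and Sema7a lost theirs while Sema3e passed. In the main fit, stricter thresholds left none of the 9 genes at an unadjusted p under 0.05. There were 0 genes at an adjusted p under 0.05, 0 at an adjusted p under 0.10 and 0 with a fold above 1.5 as well. In other settings Sema4d and Plxnb1 fell under an adjusted p of 0.05 (DESeq2). Plxnb3 and Plxna2 fell under 0.10 in at least 1 setting. The count of called signalling partners was 3, rose to 5 on the authors' table and ran from 2 to 5 with 1 library left out (5 without Emul 4). Called transcripts of the family ran from 10 to 17 with 1 library left out. With the replicate number as a block (Emul 5 dropped), 9 genes of the family and 3 partners were called, against 12.4% of all genes. The numbers do not pair the samples, since the correlations of same-numbered deviations were -0.16, -0.015, 0.021 and -0.055 and no sample correlated best with its own number.

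No called gene changed sign, and 9 uncalled genes did in at least 1 setting, all with main values close to 0 or with a dependence on the gene summary. Sema5b (0.0008) was -0.0062 by edgeR, -0.0047 by DESeq2, -0.0086 by limma-trend, -0.0051 with quality weights, -0.029 by library size alone, -0.0023 without a filter, -0.020 with the block and -0.024 after thinning. Plxna4 (0.0053) was -0.012 with quality weights, -0.026 by library size alone, -0.037 with the block and -0.00025 after thinning. Sema5a was -0.00615 by library size alone and -0.0077 with the block. Plxnc1 was -0.015 by library size alone, -0.013 by lengthScaledTPM and -0.0026 on the table. Sema4g was 0.0030 by lengthScaledTPM, 0.0026 on the table and 0.012 with the block. Sema4c was 0.12 by lengthScaledTPM, 0.12 on the table and 0.12 with older transcripts and lengthScaledTPM, a combination chosen after seeing the data. Plxnd1 was -0.10, -0.076 and -0.075 in the same 3 settings. Sema4b was -0.17 with older transcripts, -0.13 on the table, -0.0027 with the block and -0.15 with the combination. With single libraries left out, the ranges were -0.046 to 0.090 for Plxnc1, -0.056 to 0.012 for Sema4g, -0.040 to 0.040 for Sema5b, -0.037 to 0.026 for Plxna4, -0.032 to 0.013 for Plxna1, -0.00948 to 0.049 for Sema5a and -0.00064 to 0.080 for Sema4b. Library size alone moved the median of all genes to -0.029. The cause of these differences was not tested.

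All calls rest on unadjusted p-values from 4 and 5 libraries. A gene that missed the threshold is limited by its interval, which for Sema3b, with the fewest counts, reached from -0.44 to 0.10.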
